A study of Mus musculus with 6 samples.

Results

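The cyclins, cyclin-dependent kinases (CDKs), CDK inhibitors, E2F transcription factors and RB family pocket proteins were examined in day 4 embryoid bodies (EBs), floating aggregates in which mouse embryonic stem cells (mESCs) differentiate. Members were chosen by gene symbol. Cyclins had Ccn with a single letter and any number, CDKs had Cdk with a number, and E2Fs were E2f1 to E2f8. The CIP/KIP inhibitors Cdkn1a and Cdkn1b, the INK4 inhibitors Cdkn2a to Cdkn2d, and Rb1, Rbl1 and Rbl2 were added. Symbols of other forms, such as Ccnjl and Cdkn1c, were left out, so the families are not covered in full. The choice gave 59 of the 23353 genes in the table. Wildtype EBs came from the parental W9.5 line, and EVX1-Δfs EBs came from clone 14, a single clone of that line with CRISPR-made frameshift deletions in exon 2 of Evx1, which encodes a homeodomain transcription factor. Both genotypes differentiated for 4 days in serum-containing medium lacking LIF, and each gave 3 libraries, 1 from each of 3 differentiations set up on different days. With 1 clone, an effect of the edit and a feature of the clone cannot be told apart.

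Values are normalized counts, that is, reads per gene divided by a size factor for the library. The libraries held 7597879 to 9914471 reads assigned to genes, and the ribosomal RNA gene Rn45s took 1.87% to 4.95% of them. Evx1 itself had 2358.2, 2176.0 and 2400.0 normalized counts in wildtype replicates 1, 2 and 3, against 2353.7, 2516.1 and 2011.5 in EVX1-Δfs replicates 1, 2 and 3. These values overlapped, and since reads per gene do not show a frameshift, they do not check the genotype. Epiblast and nascent mesoderm markers were abundant, while 8 of 10 neurectoderm markers lay below 10 normalized counts in more than 3 of the 6 libraries and Olig2 had no read. Wildtype replicate 3 was the highest or the lowest of its group in 45 of the 53 members that passed the filter (84.9%) and in 76.1% of all genes tested.

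Cell division is driven by CDKs, kinases that are active only when bound to a cyclin. D cyclins with CDK4 and CDK6 act in G1 and phosphorylate the pocket proteins, which releases E2F factors from repression and allows genes of DNA replication to be transcribed. E and A cyclins with CDK2 then act at the start of and through S phase, and A and B cyclins with CDK1 drive mitosis, while CIP/KIP and INK4 proteins inhibit these kinases. Another set of cyclins and CDKs phosphorylates RNA polymerase II and other parts of the transcription machinery. Pluripotent mouse cells divide quickly with a short G1 phase, and the cycle lengthens as they differentiate.

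The sequence targeted for editing is shown because it defines the clone. It lies on the plus strand of NCBIM37 (the assembly of mm9) at chr6:52265847-52265866, in the coding part of exon 2 of Evx1, and the capitals mark the adjacent PAM that Cas9 requires.

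Evx1 guide target: ccagatgcgccgataccgcaCGG

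Promoter windows from 250 bases before to 50 bases after a start site were available from RefSeq (GRCm38.p6) for 47 of the 59 members, with 54 windows in all. Both strands were searched for the E2F motif, as any of TTTCCCGC, TTTCGCGC, TTTGCCGC and TTTGGCGC, for the CHR motif TTTGAA of late cell cycle promoters, and for the CCAAT box CCAAT. The E2F motif was in 13.0% of the members' windows and in 2.26% of all 32851 windows, the CHR motif in 18.5% against 17.9%, and CCAAT in 48.1% against 37.4%. Each E2F string holds a CpG dinucleotide, and these shares were not matched for the CpG content of the windows. The 7 members with the E2F motif were Cdk1, Cdk2, Cdkn2a, E2f2, E2f3, E2f7 and Rbl1. None of these 7 passed the test between genotypes, but only 5.02% of all genes tested did. No relation of the motif to the genotype follows from this. Ccnd1 and Ccnd2 had no window and could not be searched. Cdk1 and Rbl1 are shown as examples, with the E2F motif in capitals, 131 and 18 bases before the start site. The Cdk1 window lies at chr10:69352863-69353162 on the minus strand and also holds 2 CHR motifs and 3 CCAAT boxes. The Rbl1 window lies at chr2:157204485-157204784 on the minus strand.

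Cdk1: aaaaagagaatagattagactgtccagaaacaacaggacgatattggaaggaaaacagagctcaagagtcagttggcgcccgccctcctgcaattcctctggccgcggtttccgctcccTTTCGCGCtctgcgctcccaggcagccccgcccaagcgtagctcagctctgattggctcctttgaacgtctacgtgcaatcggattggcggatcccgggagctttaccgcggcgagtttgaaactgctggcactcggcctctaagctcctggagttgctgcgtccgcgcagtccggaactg

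Rbl1: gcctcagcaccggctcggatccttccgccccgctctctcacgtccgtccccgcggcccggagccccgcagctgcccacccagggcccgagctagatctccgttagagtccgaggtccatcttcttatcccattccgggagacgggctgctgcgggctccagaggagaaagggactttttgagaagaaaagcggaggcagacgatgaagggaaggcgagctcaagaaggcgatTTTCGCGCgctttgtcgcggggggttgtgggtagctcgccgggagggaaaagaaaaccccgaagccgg

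Windows of Ccnd3 and Ccno are shown because both genes were lower in EVX1-Δfs EBs. Ccnd3 has a pair of windows in the table. The one at chr17:47593217-47593516 on the plus strand is shown and holds a CCAAT box, in capitals, and neither of the other motifs, and the other one, at chr17:47504801-47505100, holds none of the 3. The Ccno window at chr13:112987552-112987851 on the plus strand holds none of the 3 motifs and has no capitals. It has 33 CpG dinucleotides, against a median of 7 CpG over all windows. This is not particular to Ccno: the Ccnd3 window shown has 28, and the members' windows ran from 2 (Cdkn1a) to 53 (Cdk14).

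Ccnd3: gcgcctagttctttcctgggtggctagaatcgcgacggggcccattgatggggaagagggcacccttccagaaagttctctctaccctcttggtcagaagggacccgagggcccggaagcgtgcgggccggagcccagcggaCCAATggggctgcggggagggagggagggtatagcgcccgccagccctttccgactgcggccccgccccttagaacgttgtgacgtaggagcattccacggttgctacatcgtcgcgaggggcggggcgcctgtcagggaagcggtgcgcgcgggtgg

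Ccno: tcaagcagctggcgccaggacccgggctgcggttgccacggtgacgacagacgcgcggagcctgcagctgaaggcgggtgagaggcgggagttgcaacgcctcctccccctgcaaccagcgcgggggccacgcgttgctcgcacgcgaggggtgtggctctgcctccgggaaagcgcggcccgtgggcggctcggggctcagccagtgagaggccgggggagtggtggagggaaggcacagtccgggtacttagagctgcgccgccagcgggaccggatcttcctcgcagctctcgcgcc

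Of the 59 members, 53 had at least 10 normalized counts in at least 3 libraries and were tested, each as part of a fit over all 13136 genes that passed this filter (limma on log2(normalized count + 1), Benjamini-Hochberg adjusted p under 0.05). Ccnd2 was higher in EVX1-Δfs EBs, and Ccnd1, Ccnd3 and Ccno were lower. All 4 encode cyclins, and 3 of them are the D cyclins. Of all genes tested, 2.08% were called higher and 2.95% lower, 5.02% in all, beside 7.55% of the members. An unadjusted p under 0.05 was found for 12 of the 53 members (22.6%) and for 23.1% of all genes, which is no higher a share among the members. DESeq2 and edgeR on reads recovered from the normalized counts called the same 4 members. The groups did not overlap for 5 members higher in EVX1-Δfs (9.43%) and 11 lower (20.8%), where 12.2% and 14.7% of all genes did so. The median log2 fold change (EVX1-Δfs over wildtype) was 0.06 over the members and 0.00 over all genes.

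For the other 49 tested members the fold changes ran from -0.49 to 0.62 and the smallest adjusted p was 0.0600. The 95% confidence interval of the log2 fold change lay within -1 and 1 for 49 of the 53 members and within -0.5 and 0.5 for 30 of them. Those that reached beyond 1 in size were Ccnd2, Ccno, Cdkn2a and Rb1.

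With the replicate number as a block, taken to mark the day of differentiation, Ccnd2 was still called higher and Ccnd1 and Ccno lower, where 0.579% and 1.11% of all genes were called. When each library's trends on GC content and exon length were removed, the calls were again Ccnd2 higher and Ccnd1 and Ccno lower, beside 0.825% and 1.16% of all genes. With both together, Ccnd2 was called higher and Ccno lower, beside 0.378% and 0.702% of all genes.

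The D cyclins are the regulatory partners of CDK4 and CDK6 and the cyclins whose levels depend most on growth signals. Ccnd1 was lower in EVX1-Δfs than in wildtype EBs, Ccnd3 was lower as well, and Ccnd2 was higher. Ccnd2 is encoded on chromosome 6 (127075797 to 127101066, minus strand, NCBIM37), Ccnd1 on chromosome 7 (152115836 to 152125774, minus strand) and Ccnd3 on chromosome 17 (47642000 to 47736632, plus strand).

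Ccnd2 had 665.9, 695.5 and 605.7 normalized counts in wildtype replicates 1, 2 and 3, against 1113.8, 1106.3 and 1140.6 in EVX1-Δfs replicates 1, 2 and 3. All 3 EVX1-Δfs libraries lay above all 3 wildtype libraries, and they differed little among themselves. The means were 655.7 ± 45.8 and 1120.3 ± 18.0 (SD, n = 3 each), a rise of 71.0%. The log2 fold change was 0.77 ± 0.11 (SE; 95% confidence interval 0.54 to 1.00) with a limma adjusted p of 2.88e-04, and Ccnd2 was called in each of the 15 alternative fits.

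Ccnd1 had 2661.5, 3150.3 and 2835.1 normalized counts in wildtype replicates, against 1937.3, 1980.4 and 2127.8 in EVX1-Δfs replicates. The groups did not overlap, and the gap between them was wider than the range of the EVX1-Δfs libraries. The means were 2882.3 ± 248 and 2015.2 ± 99.9, and the level fell by 30.0%. The log2 fold change was -0.51 ± 0.11 (SE; 95% confidence interval -0.74 to -0.29), with a limma adjusted p of 0.0107. The adjusted p was 0.0549 without EVX1-Δfs replicate 1 and 0.0545 with the block plus removal of both trends, and the call was kept in the other 13 fits. The exons of Ccnd1 share 818 bases with Oraov1 on the opposite strand, for which the log2 fold change was 0.04 (adjusted p = 0.919).

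Ccnd3 had 1159.5, 1252.2 and 1402.7 normalized counts in wildtype replicates, against 730.1, 1073.6 and 920.5 in EVX1-Δfs replicates. The groups did not overlap, but EVX1-Δfs replicate 2 lay close to the lowest wildtype library and the 3 EVX1-Δfs values were spread widely. This was a log2 fold change of -0.50 ± 0.13 (SE; 95% confidence interval -0.77 to -0.23), with a limma adjusted p of 0.0313. The call did not hold with the replicate block (adjusted p = 0.0560), with the GC and length trends removed (log2 fold change -0.30, adjusted p = 0.218), with both (0.163), or without wildtype replicate 3 (0.0852), without EVX1-Δfs replicate 1 (0.164) or without EVX1-Δfs replicate 3 (0.0713). Ccnd3 exons share 353 bases with Bysl on the opposite strand. Bysl, which encodes a factor of ribosome assembly, was itself lower, with a log2 fold change of -0.56 (adjusted p = 0.0267), and whether reads were counted by strand is not given beyond the counter's standard settings. The part of the shared bases in the Ccnd3 value was not tested.

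**Figure D1:**
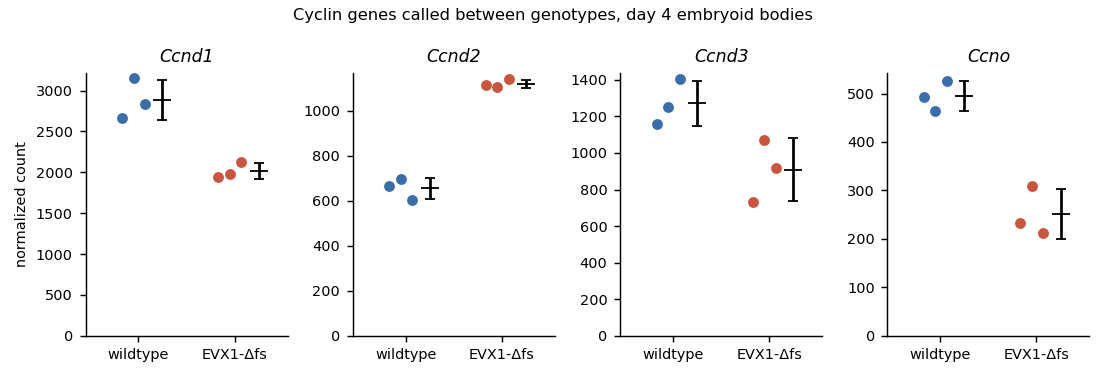
Normalized counts of the 4 called members in each library (points; blue, wildtype; red, EVX1-Δfs), with the mean and SD of 3 libraries beside them, on axes that start at 0. For Ccnd2 the EVX1-Δfs points sit between 1106.3 and 1140.6, above all wildtype points, and for Ccnd1, Ccnd3 and Ccno all EVX1-Δfs points sit below the wildtype points.

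Counts were divided by the total length of annotated exons, so that the 3 genes could be compared with each other. Ccnd1 was then the most abundant D cyclin and Ccnd2 the least in every library. In normalized counts per kb of exon, Ccnd1 was at 751.6 ± 64.6, Ccnd3 at 563.8 ± 54.4 and Ccnd2 at 115.0 ± 8.03 in wildtype EBs (SD, n = 3). In EVX1-Δfs EBs they were at 525.5 ± 26.0, 402.7 ± 76.3 and 196.5 ± 3.16. Within each group the ranges of the 3 genes did not overlap, so the order was the same in both genotypes while the distances narrowed.

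Their summed level was 1325.0, 1498.7 and 1467.6 per kb in wildtype replicates, against 1024.3, 1186.6 and 1163.1 in EVX1-Δfs replicates. All EVX1-Δfs sums lay below all wildtype sums. The share of Ccnd2 in this sum was 8.07% ± 0.790 for wildtype and 17.5% ± 1.39 for EVX1-Δfs (SD, n = 3), and the ratio of Ccnd1 to Ccnd2 was 6.54 ± 0.534 and 2.67 ± 0.0944. These shares follow from the 3 called genes and are given as a description.

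**Figure D2:**
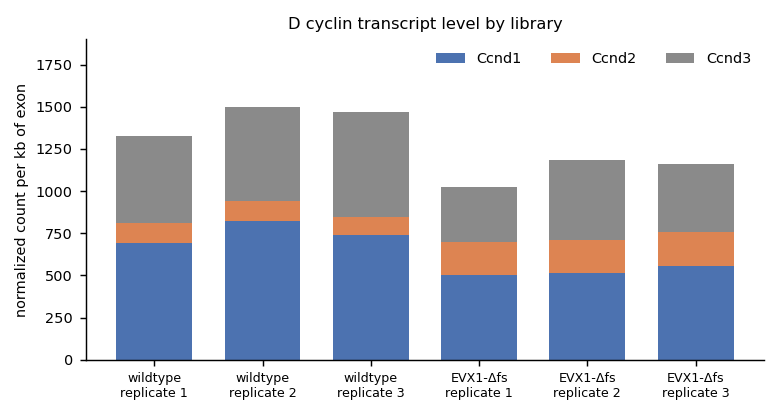
Stacked normalized counts per kb of exon of Ccnd1 (blue), Ccnd2 (orange) and Ccnd3 (grey) in each of the 6 libraries. The total runs from 1325.0 to 1498.7 in wildtype and from 1024.3 to 1186.6 in EVX1-Δfs libraries, and the orange share is the larger in all EVX1-Δfs libraries.

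EBs hold several cell types, and in such bulk samples fewer cells of a type and less RNA per cell cannot be told apart. Beside the D cyclins, 11 of 14 nascent mesoderm markers were lower in EVX1-Δfs EBs (median log2 fold change -0.78; 8 with the replicate block and 6 with the block plus both trends removed), and their summed normalized counts were 21494.8 to 23354.1 in wildtype and 13294.6 to 16620.0 in EVX1-Δfs libraries. Haematoendothelial markers were lower for 4 of 10 tested and summed to 3372.1 to 4478.6 and 1976.5 to 2280.4. Epiblast markers were higher for 1 of 15, with a median of 0.29 and 12 of 15 positive, and summed to 21198.2 to 30847.3 and 25495.3 to 30562.8. The count of epiblast markers called higher was 5 with DESeq2, edgeR, upper-quartile scaling or without wildtype replicate 3. It was 0 with the replicate block, without wildtype replicate 1, without wildtype replicate 2 or without EVX1-Δfs replicate 1. Endoderm markers were higher for 3 and lower for 1 of 8 tested (1 and 1 with the block). Their median was -0.21, with 3 positive and 5 negative, and Afp, Ttr, Apoa1 and Amn were below the filter. Neither of the 2 neurectoderm markers tested was called by limma (1 had an unadjusted p under 0.05). The part of these cell types in the cyclin values was not tested.

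Ccno had the largest fold change of the 53 tested members. It encodes cyclin O, known for its need in multiciliated cells, and lies on chromosome 13 (113778010 to 113780986, plus strand, NCBIM37). Wildtype replicates had 492.7, 464.6 and 525.6 normalized counts, whereas EVX1-Δfs replicates had 232.5, 309.0 and 212.5. The groups were far apart, with the highest EVX1-Δfs library well under the lowest wildtype library. Its level fell by 49.6%, a log2 fold change of -0.99 ± 0.14 (SE; 95% confidence interval -1.29 to -0.69) with a limma adjusted p of 2.88e-04, and Ccno was called in each of the 15 alternative fits. No overlap with the exons of another gene was annotated.

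The other 6 tested cyclins outside the main cell cycle families were not called, with fold changes from -0.25 to 0.26. Ccnf, which encodes a substrate receptor of an SCF ubiquitin ligase, had 1262.8, 1294.6 and 1563.0 normalized counts in wildtype and 1037.3, 1231.5 and 1181.6 in EVX1-Δfs replicates. These did not overlap, but the log2 fold change of -0.25 ± 0.12 had an adjusted p of 0.198 (unadjusted p = 0.0423), and was -0.16 without wildtype replicate 3. Ccng1, a p53 target, Ccng2, Ccni, Ccnj and Ccny overlapped between groups.

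The E cyclins, which with CDK2 act at the entry into S phase, were not called. Ccne1 had 636.2, 583.2 and 849.6 normalized counts in wildtype and 604.1, 526.7 and 586.0 in EVX1-Δfs replicates, and Ccne2 had 163.6, 184.1 and 126.0 against 199.8, 156.8 and 198.2. Wildtype replicate 3 was the highest of the 6 libraries for Ccne1 and the lowest for Ccne2, and the groups overlapped for both. The log2 fold changes were -0.25 (95% confidence interval -0.53 to 0.03, adjusted p = 0.264) and 0.24 (-0.12 to 0.59, adjusted p = 0.420), and without wildtype replicate 3 they were -0.09 and 0.08.

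Among the A and B cyclins, Ccna2, Ccnb1 and Ccnb2 were abundant, while Ccna1 and Ccnb3 were below the filter. Ccna2, the S phase and G2 cyclin, had 1636.9, 1830.9 and 1914.5 normalized counts in wildtype and 1833.7, 1603.7 and 1769.5 in EVX1-Δfs replicates. Ccnb1, the main partner of CDK1 in mitosis, had 1213.1, 1309.7 and 1350.0 against 1338.8, 1442.4 and 1442.7, and Ccnb2 had 1403.5, 1364.5 and 1274.4 against 1431.3, 1248.4 and 1360.7. All 3 overlapped between the genotypes. Their log2 fold changes were -0.05 (95% confidence interval -0.28 to 0.18), 0.13 (-0.10 to 0.35) and 0.00 (-0.23 to 0.22), so each interval lay within 0.4 of no change.

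None of the 4 cell cycle CDKs was called. Cdk4, the G1 kinase bound by D cyclins, had the highest normalized count of all members, with 4429.4, 4575.9 and 5619.8 in wildtype and 4382.5, 4688.1 and 4490.0 in EVX1-Δfs replicates. Cdk6, the alternative D cyclin partner, had 233.4, 201.8 and 239.3 against 284.8, 223.3 and 233.5. In both the groups overlapped, and the log2 fold changes were -0.10 (95% confidence interval -0.34 to 0.14, adjusted p = 0.646) and 0.13 (-0.17 to 0.43, adjusted p = 0.628). Per kb of exon, Cdk4 was at 1500.5 in wildtype and 1391.3 in EVX1-Δfs EBs and Cdk6 at 60.2 and 66.2, so Cdk4 RNA was far more abundant than Cdk6 RNA in both genotypes.

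Cdk2, the partner of E and A cyclins, had 410.4, 452.2 and 351.5 normalized counts in wildtype and 464.0, 407.1 and 516.5 in EVX1-Δfs replicates, which overlapped. Cdk1, the mitotic kinase, had 1326.9, 1339.8 and 1406.1 against 1516.2, 1450.3 and 1451.2. Here all EVX1-Δfs libraries were above all wildtype libraries, but by little. The log2 fold changes were 0.19 (95% confidence interval -0.08 to 0.47, adjusted p = 0.401) for Cdk2 and 0.12 (-0.10 to 0.34, adjusted p = 0.536) for Cdk1.

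The 7 transcriptional cyclins had no called gene, but 3 had an unadjusted p under 0.05. Ccnl1, which with its relative Ccnl2 encodes an L cyclin linked to splicing, had 540.5, 544.2 and 365.3 normalized counts in wildtype and 655.4, 648.5 and 644.1 in EVX1-Δfs replicates. All EVX1-Δfs libraries were higher, and wildtype replicate 3 stood well below the other wildtype libraries. The log2 fold change was 0.45 ± 0.14 (adjusted p = 0.0600), and Ccnl1 was called with upper-quartile scaling (adjusted p = 0.0452), without wildtype replicate 1 (0.0498) and without wildtype replicate 2 (0.0399). Without wildtype replicate 3 its log2 fold change was 0.26 (adjusted p = 0.236).

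Ccnl2 had a log2 fold change of 0.33 ± 0.13 (adjusted p = 0.132) with no overlap of the groups, and wildtype replicate 3 was again the lowest library at 951.5. Without that library the fold change was 0.16 (adjusted p = 0.458). Ccnk, the cyclin of CDK12 and CDK13, had -0.37 ± 0.14 (adjusted p = 0.115) and overlapped between groups. The fold changes of Ccnc, a Mediator subunit, Ccnh, of the CDK-activating kinase, and Ccnt1 and Ccnt2, of the elongation factor P-TEFb, ran from -0.08 to 0.29, with all groups overlapping.

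Their kinase partners were not called either. The 6 transcriptional CDKs (Cdk7, Cdk8, Cdk9, Cdk12, Cdk13 and Cdk19) had fold changes from -0.16 to 0.19, and all 6 confidence intervals lay within -0.5 and 0.5. Cdk9, the kinase of P-TEFb, was the only one of them whose groups did not overlap, at 1642.0 to 1735.4 in wildtype and 1422.7 to 1621.7 in EVX1-Δfs libraries (log2 fold change -0.16, adjusted p = 0.386). The 7 other CDKs tested ran from -0.22 to 0.28 without a call, and the groups of Cdk10 and Cdk18 did not overlap, with EVX1-Δfs lower in both.

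Cdkn1a, the CIP/KIP inhibitor p21 and a p53 target, had 696.5, 835.4 and 806.1 normalized counts in wildtype and 518.2, 657.5 and 641.3 in EVX1-Δfs replicates. The groups did not overlap, with EVX1-Δfs replicate 1 the lowest. The log2 fold change of -0.37 ± 0.12 (95% confidence interval -0.63 to -0.11) had an adjusted p of 0.0834 and was not called. Cdkn1b, the inhibitor p27, had 663.9, 547.8 and 493.5 against 621.8, 576.3 and 590.8. It overlapped between groups, with a log2 fold change of 0.08 (-0.18 to 0.34, adjusted p = 0.749).

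INK4 inhibitors, which bind CDK4 and CDK6, were low. Cdkn2a, whose locus encodes both INK4A and ARF, which reads per gene do not tell apart, had 63.1, 70.8 and 59.5 normalized counts in wildtype and 57.9, 29.3 and 55.3 in EVX1-Δfs replicates. The groups did not overlap, and EVX1-Δfs replicate 2 stood apart at the low end. Its log2 fold change was -0.49 ± 0.25 (95% confidence interval -1.01 to 0.03, adjusted p = 0.245), and -0.18 without EVX1-Δfs replicate 2 (adjusted p = 0.669).

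The remaining INK4 genes were below the filter. Cdkn2b had 9.57, 7.96 and 8.02 normalized counts against 8.40, 7.89 and 9.53, that is, 26 reads in each group. Cdkn2c had 2.87, 1.77 and 2.29 against 0.934, 0 and 0.953, from 7 and 2 reads, and Cdkn2d had 8.61, 16.8 and 9.16 against 4.67, 6.77 and 8.58, from 36 and 20 reads. The groups of the last 2 did not overlap, though for Cdkn2d they nearly met. The ratio of EVX1-Δfs to wildtype was 0.290 for Cdkn2c, with a 95% counting interval of 0.0294 to 1.52, and 0.563 for Cdkn2d, with an interval of 0.309 to 0.999. Such intervals cover counting error only.

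The other 3 members below the filter were Ccna1, Ccnb3 and Cdk15. Ccna1, the germline A cyclin, had 0, 1 and 1 reads in wildtype and 4, 6 and 10 reads in EVX1-Δfs replicates, so every EVX1-Δfs library was higher. After normalization the ratio was 10.1, with a 95% counting interval of 2.46 to 89.5. In the fit over all genes with any read, Ccna1 had a limma adjusted p of 0.0241. DESeq2 gave no adjusted p (unadjusted p = 0.0141). Ccnb3 had 1 read in all and Cdk15 had 5 reads in wildtype and 3 in EVX1-Δfs libraries.

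None of the 8 E2F genes was called, although E2f1 and E2f4 had unadjusted p under 0.05. Among the activating E2Fs, E2f1 had 438.2, 479.6 and 561.1 normalized counts in wildtype and 416.4, 409.4 and 364.0 in EVX1-Δfs replicates. The groups did not overlap, with wildtype replicate 3 the highest, and the log2 fold change was -0.31 ± 0.13 (adjusted p = 0.154). E2f2 had 68.9, 69.9 and 89.3 against 92.4, 74.4 and 83.9, and E2f3 had 369.3, 361.9 and 375.6 against 402.4, 452.2 and 357.3. Both overlapped, with log2 fold changes of 0.14 (adjusted p = 0.716) and 0.12 (adjusted p = 0.598).

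E2f4, the E2F that acts with pocket proteins to repress, had the highest level per kb of exon of all members, at 1675.5 averaged over the 2 group means. Cdk4 followed at 1445.9. The lengths are those of all annotated exons of a gene together, and the order was not checked with other lengths. E2f4 had 3509.1, 3529.9 and 3936.6 normalized counts in wildtype and 3313.5, 2952.5 and 2783.4 in EVX1-Δfs replicates, without overlap. Its log2 fold change was -0.28 ± 0.11 (95% confidence interval -0.51 to -0.05, adjusted p = 0.138). E2f5, its close relative, had 413.3, 482.3 and 423.7 against 456.6, 421.8 and 541.2, and E2f6, which represses without pocket proteins, had 172.2, 211.5 and 267.9 against 193.3, 215.4 and 174.4. Both overlapped, with adjusted p of 0.684 and 0.647.

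The atypical repressors E2f7 and E2f8, themselves transcribed in S phase, also overlapped. E2f7 had 264.0, 276.1 and 278.2 normalized counts in wildtype and 244.6, 316.9 and 291.6 in EVX1-Δfs replicates, and E2f8 had 345.4, 306.2 and 318.3 against 350.1, 336.1 and 348.8. Their log2 fold changes were 0.05 (95% confidence interval -0.23 to 0.34) and 0.09 (-0.17 to 0.36).

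The 3 pocket proteins had positive log2 fold changes in the main fit and in all 15 alternatives, but none was called. Rb1, the retinoblastoma gene, had 36.4, 40.7 and 30.9 normalized counts in wildtype and 53.22, 53.01 and 60.03 in EVX1-Δfs replicates. All EVX1-Δfs libraries were higher, with a log2 fold change of 0.62 ± 0.24 (95% confidence interval 0.13 to 1.10, adjusted p = 0.122). Rb1 exons share 488 bases with Rcbtb2 and 408 with Lpar6, both on the opposite strand. Mean normalized counts in wildtype and EVX1-Δfs EBs were 371.5 and 305.3 for Rcbtb2 and 74.8 and 87.7 for Lpar6. The part of the shared bases in the Rb1 value was not tested. Rbl1, which encodes p107, had 270.7, 297.3 and 216.4 against 330.5, 266.2 and 324.0, and Rbl2, which encodes p130, had 91.8, 81.4 and 64.1 against 103.6, 84.6 and 92.4. Both overlapped, with log2 fold changes of 0.24 (-0.07 to 0.54) and 0.25 (-0.16 to 0.66). Without wildtype replicate 3 these were 0.11 and 0.11, and with the GC and length trends removed 0.03 and 0.13. Rbl2 exons share 693 bases with Aktip on the opposite strand. Mean normalized counts of Aktip were 415.3 in wildtype and 508.0 in EVX1-Δfs EBs. The part of the shared bases in the Rbl2 value was not tested. Per kb of exon, Rbl1 was the most abundant of the 3 at 43.6 in wildtype and 51.2 in EVX1-Δfs EBs, and Rb1 the least at 5.98 and 9.21.

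**Figure D3:**
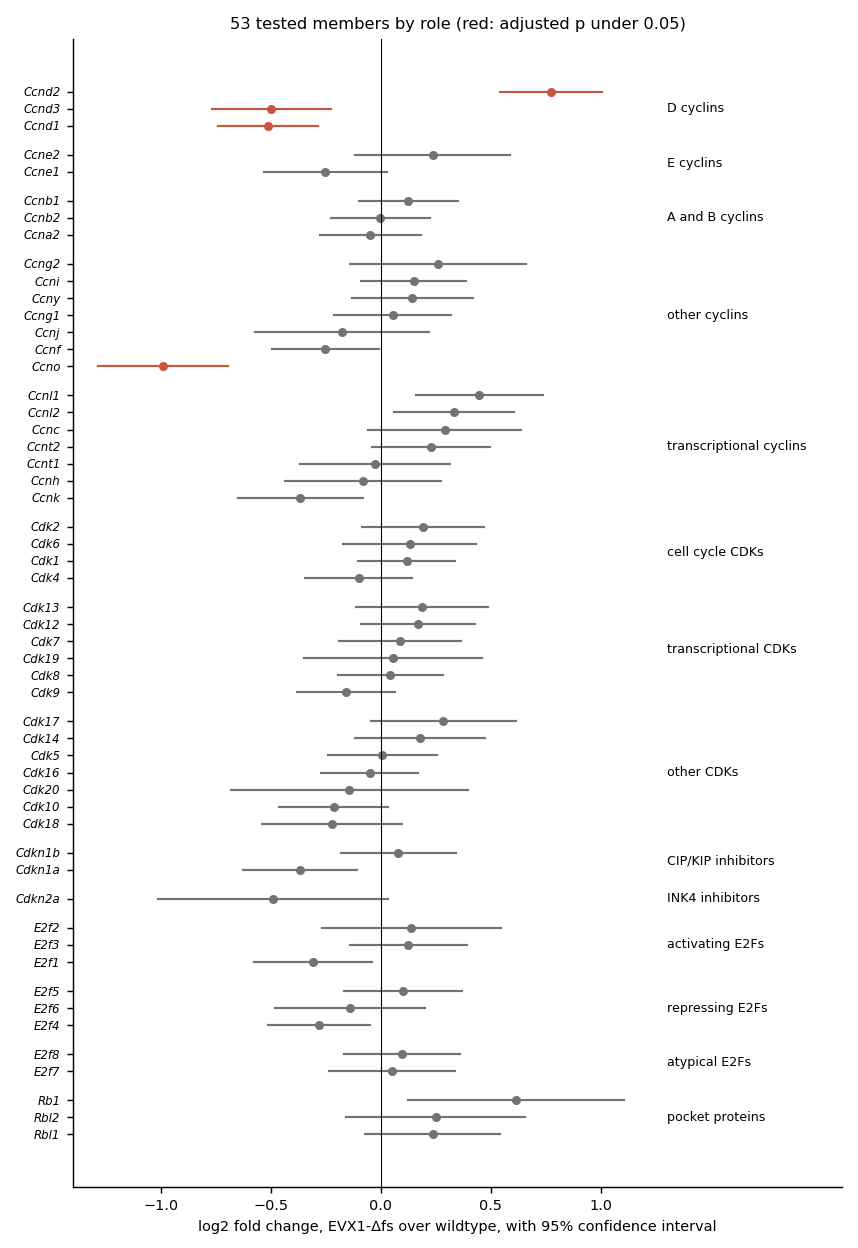
Log2 fold change of EVX1-Δfs over wildtype for the 53 tested members (points) with 95% confidence intervals (lines), grouped by role, with called genes in red. The 3 D cyclins and Ccno, at -0.99, carry the red points, and the other 49 members lie between -0.49 and 0.62.

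Fold changes of the members followed the GC content of their annotated exons, which ran from 35.7% (Ccnc) to 59.6% (Ccnd3). Spearman's rho between fold change and GC content was -0.710 across the 53 members and -0.461 across 12972 tested genes with an annotated GC content. These are relations across genes, which share the same 6 libraries and are not replicates. With per-library trends on GC content and exon length removed, the members with a positive fold change went from 31 to 23 of 53. Ccnd2 was then at 0.74, Ccnd1 at -0.45 and Ccno at -0.82. Ccnd3 moved from -0.50 to -0.30, Rb1 from 0.62 to 0.36, Ccnl1 from 0.45 to 0.19 and E2f1 from -0.31 to -0.13. The removal also takes away any difference between genotypes that follows GC content or length.

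**Figure D4:**
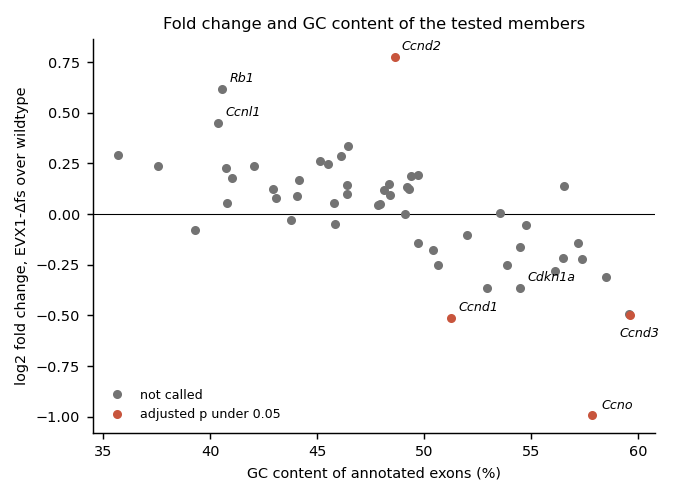
Log2 fold change (EVX1-Δfs over wildtype) against the GC content of annotated exons (%) for the 53 tested members, with called genes in red. Members of high GC content tend to lie below 0 (rho = -0.710), and Ccnd2 stands above the other members of like GC content.

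Several groups of other cell cycle genes were read from the same fit, as counts beside the 2.08% of all genes called higher and 2.95% called lower. Of 40 S phase genes, many of them known E2F targets, Cdc7 was higher and Gins2 and Pold1 were lower. Cdc7, a kinase that starts replication origins, had a log2 fold change of 0.52 (adjusted p = 0.0492). Gins2, of the replicative helicase, had -0.49 (adjusted p = 0.0240), and Pold1, of DNA polymerase delta, -0.41 (adjusted p = 0.0323). Of the 6 fits that left out a library, 2 called Cdc7, 3 called Gins2 and 2 called Pold1. Without wildtype replicate 3 the limma adjusted p of Cdc7 was 0.195. The fold change was negative for 29 of the 40 genes, with a median of -0.12, which was -0.03 without wildtype replicate 3. Their summed normalized counts were 57996.5 to 66824.3 in wildtype and 53962.8 to 56208.1 in EVX1-Δfs libraries.

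Of 36 G2 and M phase genes, Plk1, a mitotic kinase, was lower with a log2 fold change of -0.40 (adjusted p = 0.0376), and the median was 0.01. Of 32 regulators of CDK and E2F activity, Cables1, which encodes an adaptor that binds CDKs, was lower with -0.75 (adjusted p = 0.0302), and the median was 0.06. Of 20 p53 target genes tested, Gadd45a, a stress-induced growth inhibitor, was higher with 0.76 (adjusted p = 0.0323), Trp53inp1 was higher with 0.63 (adjusted p = 0.0170), and Bax, a pro-apoptotic BCL2 family member, was lower with -0.40 (adjusted p = 0.0436), with a median of 0.21. The p53 targets went both ways, with 11 positive and 9 negative log2 fold changes, from -0.40 to 0.95. Limma gave an unadjusted p under 0.05 for 13 of these 20 p53 targets, where 23.1% of all genes had one. With the GC and length trends removed it was 6 of the p53 targets, but the share of all genes is not given for that fit. In the main fit it was 11 of 40 S phase genes, 9 of 36 G2 and M phase genes and 7 of 32 regulators. The p53 target Cdkn1a, counted among the members and not called, lay at -0.37.

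None of these 8 genes kept its call with the replicate block, where adjusted p ran from 0.0515 to 0.0955. With GC and length trends removed only Gadd45a kept it (adjusted p = 0.0279).

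**Figure D5:**
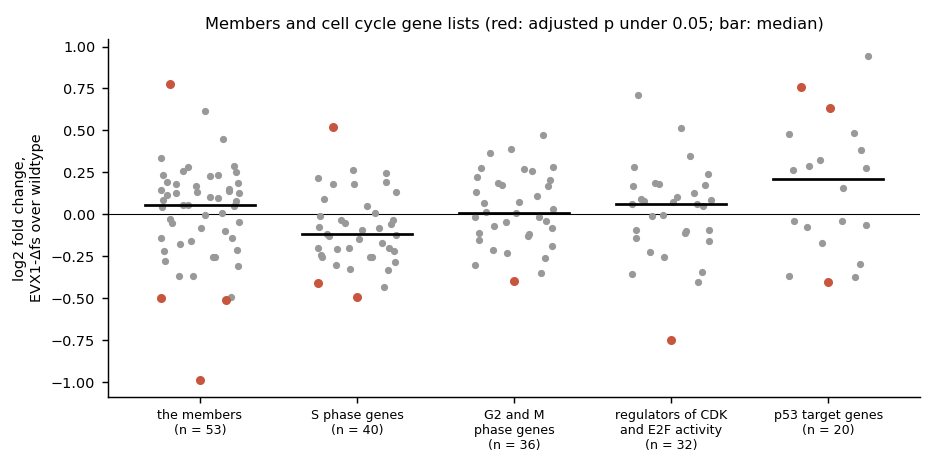
Log2 fold change (EVX1-Δfs over wildtype) of each tested gene in the 53 members and in lists of 40 S phase genes, 36 G2 and M phase genes, 32 regulators and 20 p53 targets, with called genes in red and the median as a bar. The medians lie between -0.12 for S phase genes and 0.21 for p53 targets, and few points in any list are red.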

How the data were processed

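RNA-seq of 3 wildtype and 3 EVX1-Δfs libraries was analysed from the deposited table. The authors selected mRNA, sequenced it on an Ion Proton, mapped reads to mm9 with TopHat2 and TMAP and counted them per gene with HTSeq. Versions and annotation are not given in the sources used here. The deposited values are a signal, reads divided by 1 size factor per library: 100% were whole reads within 0.01 reads once rescaled. No column was left unused.

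Genes that reached 10 normalized counts in 3 or more libraries were tested with limma 3.58.1 (R 4.3.3, mean-variance trend) on log2(normalized count + 1). This scale understates changes of low genes. DESeq2 1.42.0 and edgeR 4.0.16 on recovered reads, other scalings, a pseudocount of 4, no filter, and leaving out each library were alternatives. The main fit, the block fit, the trend fit, DESeq2 and edgeR were also run on simulated counts with known changes. The simulation held no day effect and no GC trend, and the other alternatives were not run on it. According to the paper, conditions compared side by side shared a start day, and each replicate was started on another day. The replicate number was taken to mark the start day and to pair the libraries, though no source ties the numbers across genotypes. Deviations from the group means correlated within pairs at 0.111, 0.00933 and -0.101 over 13136 genes. P-values measure the spread between differentiations of 1 cell line per genotype.

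GC content, exon length and gene positions came from NCBIM37 with GENCODE vM1, where 94.1% of symbols matched, and trends were splines of 5 degrees of freedom. The members and lists were chosen with earlier results of these data known. Library values are given for called members and for the main cell cycle members, other members are given by range or, with an unadjusted p under 0.05, by value, and from other lists called genes are named. Cell type markers are given as counts and sums.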

Additional observations from a re-analysis of the deposited data

How the results depend on the processing

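For the 4 called members, 52 of 60 values under the alternatives kept their call and all kept their direction. The 8 that lost it belong to Ccnd1 and Ccnd3 and are given with those genes. Of 735 values for the members that were not called, 3 passed the threshold, all for Ccnl1, and 55 over 21 members changed sign without being called in either fit. The number of members called higher was 2 with upper-quartile scaling and 2 over all genes with any read, and 1 to 2 on leaving out a library (2 without wildtype replicate 1 or 2). Those called lower numbered 1 with the replicate block and trends removed together, and 1 to 3 on leaving out a library (1 without EVX1-Δfs replicate 1). All genes called numbered 222 with the replicate block, 257 with the GC and length trends removed, 140 with both, and 222 to 655 on leaving out a library (378 without wildtype replicate 3, 231 without EVX1-Δfs replicate 1 and 222 without EVX1-Δfs replicate 3), against 660. Upper-quartile scaling gave 370 higher and 325 lower, against 273 and 387, with the median of all genes at 0.03.

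With the replicate block, alone or with trends removed, 0 S phase genes, 0 G2 and M phase genes, 0 regulators and 0 p53 targets were called by limma. The block alone gave 10, 8, 7 and 11 with an unadjusted p under 0.05. The share of all genes at that level is not given for the block fit, so these counts have no background. DESeq2 without the block called 3, 1, 2 and 4. With the trends removed and no block, limma called 0, 0, 0 and 1. G2 and M phase genes numbered 0 with upper-quartile scaling, and regulators 2 with DESeq2, 1 with edgeR and 0 over all genes with any read. Leaving out a library gave 0 to 3, 0 to 2, 0 to 1 and 0 to 5 in the same order.

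With trends removed, with and without the block, the log2 fold change changed sign to -0.0333 for Ccnb1, 0.0117 for Ccnb2, -0.113 for Ccnc, -0.0814 for Ccne2, -0.158 for Ccng1, -0.0608 for Ccnt2, -0.0186 for Cdk12, -0.111 for Cdk14, 0.0628 for Cdk16, -0.0494 for Cdk19, 0.0191 for Cdk20, -0.0837 for Cdk7, -0.0801 for Cdkn1b and -0.0261 for E2f7. Ccnb2 was at 0.0107 with edgeR, 0.00215 with TMM and 0.0268 with upper-quartile scaling, and Ccnt1 at 0.000614 with upper-quartile scaling. On leaving out a library, Ccna2 ran from -0.112 to 0.00888, Ccnb2 from -0.0468 to 0.0517, Ccng1 from -0.0615 to 0.176, Ccng2 from -0.0290 to 0.470, Ccnh from -0.236 to 0.0395, Ccnt1 from -0.144 to 0.121, Cdk16 from -0.0867 to 0.00264, Cdk19 from -0.0636 to 0.140, Cdk20 from -0.395 to 0.0347, Cdk4 from -0.166 to 0.00524, Cdk5 from -0.0338 to 0.0470, Cdk7 from -0.00605 to 0.171, Cdkn1b from -0.0170 to 0.197, E2f6 from -0.297 to 0.0208 and E2f7 from -0.0301 to 0.156. The cause was not tested. For the 6 members below the filter, low expression and too few reads to detect it were not told apart.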
